A study of Mus musculus with 16 samples.

Results

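Control mouse embryonic stem cells were compared before differentiation and on day 3 of it. The comparison rests on 4 of the 16 bead arrays of the study: the 2 control arrays of day 0 and the 2 control arrays of day 3, chosen by genotype and day alone. All 4 carried cells with both copies of Rest (REST +/+), and none was given a further agent. Day 0 cells (cell type ESC) grew without feeder cells on gelatin, in serum-containing medium with leukemia inhibitory factor (LIF). For day 3 the dissociated cells were aggregated in hanging drops of the same medium lacking LIF, and the embryoid bodies so formed were moved into suspension before they were collected. Withdrawal of LIF, aggregation into embryoid bodies and time in culture changed together, so their parts in any difference cannot be told apart. The other 12 arrays hold control cells of days 6 and 9 and cells without Rest (REST -/-) of all 4 days, 2 arrays a group. The name, strain and clone of the cells are not given in the labels used here. The 2 arrays of a group are numbered but not stated to be separate cultures, so that p-values reflect only how far such arrays differ, possibly for technical reasons.

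Embryonic stem cells kept in LIF resemble the inner cell mass of the blastocyst. A network of transcription factors around Pou5f1, Nanog and Sox2 keeps them undifferentiated, and LIF sustains it through the receptor subunit gp130 and the factor STAT3. After LIF is withdrawn, cells pass through a state like the epiblast of the implanted embryo, marked by Fgf5 and Otx2. Under Nodal, Wnt and BMP signals part of the epiblast then enters the primitive streak, the region where mesoderm and endoderm arise. Mesp1, Mixl1, Eomes and Gsc are transcription factors of that region.

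Levels are log2 intensities after background correction, with 16 added, and after quantile normalization. The dimmest detected probe on each of the 4 arrays lay between 6.64 and 7.50 on this scale, and 6300 to 8450 probes were detected per array. Control day 0 replicate 2 had the fewest detected probes of all 16 arrays. Replicate arrays correlated across genes with r = 0.982 at day 0 and r = 0.990 at day 3, against 0.863 to 0.880 between the days. Of the 7505 genes tested, 5866 had a probe detected on both arrays of day 0 or of day 3. Calls rest on limma with p-values adjusted by Benjamini-Hochberg across all 7505 genes and a threshold of 0.05, and every adjusted p is from that fit. Where a gene was detected on no array of 1 day, the difference is given as a lower bound, the brighter day against the dimmest detected probe of each array. Other differences are fitted log2 differences, day 3 minus day 0, with the standard error.

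The labels matched the markers of each state. At day 0 the stem cell markers Pou5f1, Nanog, Sox2, Zfp42, Klf4, Esrrb and Dppa5a were detected on both arrays, and the streak markers Mixl1, Eomes, Mesp1, Gsc, Lhx1 and Evx1 on neither. At day 3 all 6 streak markers were detected on both arrays. In bulk RNA, fewer cells of a type and less RNA per cell cannot be told apart.

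By day 3, 2038 genes (27.2% of those tested) were higher and 1829 (24.4%) were lower, and the median over all tested genes was 0.04. Differences of more than 1 on the log2 scale numbered 666 upwards and 774 downwards, and those of more than 3 numbered 43 and 60. The 2 arrays of day 0 did not overlap the 2 arrays of day 3 for 3859 of the 3867 called genes and for 71.9% of all tested genes. Of the higher genes 583 were undetected on both day 0 arrays, and of the lower genes 332 were undetected on both day 3 arrays. Of all calls 52.7% were upwards, and 69.8% (2844 higher, 1229 lower) when arrays were centred on their medians in place of quantile normalization, which moved the median over all genes by 0.19.

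**Figure D1:**
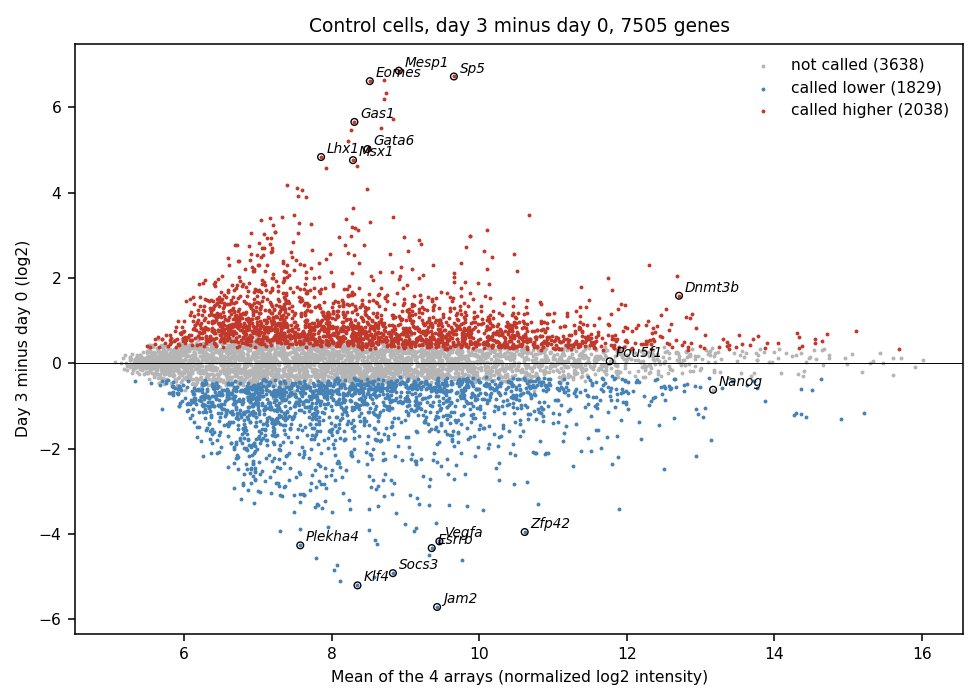
Each point is 1 of 7505 genes in control cells, with the mean log2 intensity of the 4 arrays on the horizontal axis and day 3 minus day 0 (log2) on the vertical axis; red and blue points were called higher or lower and grey points were not called. Streak genes such as Mesp1 and Sp5 lie at the top, Jam2 and Klf4 at the bottom, and Pou5f1 lies near 0 at a high level.

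The transcription factors that hold the undifferentiated state moved apart by day 3. Of 20 tested pluripotency regulators, 15 were lower, 1 was higher and 4 were not called, with a median of -1.93. Among all tested genes 27.2% were higher and 24.4% lower, the shares against which this and the other list counts stand. Klf4, a Krüppel-like factor that acts downstream of LIF, read 11.03 and 10.88 at day 0 and 5.50 and 6.00 at day 3, so that it was undetected at day 3 and at least 17.5-fold lower (adjusted p = 4.42e-11). Esrrb, an orphan nuclear receptor of the naive network, read 11.46 and 11.59 at day 0 and 6.87 and 7.51 at day 3, a difference of -4.33 ± 0.21 (adjusted p = 6.73e-10). The groups lie far apart for both genes. Zfp42, the zinc finger protein Rex1 that marks undifferentiated cells, read 12.45 and 12.74 at day 0 and 8.47 and 8.81 at day 3 and differed by -3.96 ± 0.24 (adjusted p = 5.65e-09). Tcl1, a cofactor of the kinase AKT, differed by -4.50, Klf2 by -3.91 and Nr0b1, the nuclear receptor Dax1, by -3.78. Falls of smaller size were those of Stat3, the effector of LIF, at -2.90, of Klf5 at -2.05 and of Gbx2, a homeobox gene of the LIF pathway, at -2.02.

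The core factors did not share the fall of Klf4 and Esrrb in size. Pou5f1, which encodes OCT4, read 11.66 and 11.84 at day 0 and 11.84 and 11.75 at day 3. Its groups overlap, and the difference of 0.05 ± 0.16 (adjusted p = 0.839) did not pass the test, with a 95% interval from -0.31 to 0.40. With median centring, which lifts the median over all genes, it was called higher at 0.44 (adjusted p = 0.0351). Nanog read 13.43 and 13.53 at day 0 and 12.83 and 12.89 at day 3, lower on both day 3 arrays, but at -0.62 ± 0.26 (adjusted p = 0.0576) it was not called. The same value was called lower when only the 4 arrays were fitted (adjusted p = 0.019). Sox2 read 14.12 and 13.94 at day 0 and 11.61 and 12.09 at day 3 and fell by 2.18 on the log2 scale, and remained detected on both arrays. Sall4, a zinc finger partner of OCT4, was not called at 0.45 ± 0.28 (adjusted p = 0.19), and was called higher with median centring, at 0.80 (adjusted p = 0.0275). Myc, the growth regulator, was the member that rose, at 1.36 ± 0.22 (adjusted p = 0.000104), while its relative Mycn was lower, at -0.91 ± 0.25 (adjusted p = 0.00766).

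The promoter of Zfp42 is shown because that gene has long been studied as a target of OCT4 and fell while Pou5f1 itself was not called. Sequences are from RefSeq (build GRCm38.p6), from 250 bases before to 50 after the annotated start, in the orientation of the gene. The Zfp42 window lies at chr8:43306960-43307259, minus strand. Capitals mark the OCT4 octamer ATGCAAAT, found on the opposite strand 186 bases before the start, and the KLF site GGGTGTGG, also on the opposite strand, 75 bases before it.
Zfp42: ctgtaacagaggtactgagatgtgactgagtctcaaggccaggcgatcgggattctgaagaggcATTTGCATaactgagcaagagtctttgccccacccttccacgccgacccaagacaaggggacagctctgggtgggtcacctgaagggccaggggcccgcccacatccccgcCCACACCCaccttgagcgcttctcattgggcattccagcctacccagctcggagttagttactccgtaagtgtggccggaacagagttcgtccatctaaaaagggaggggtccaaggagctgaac
On either strand the octamer is in 1.74% of 32851 such windows of the genome. It is in 1.3% of the windows of tested genes and in 1.71% of those of genes lower at day 3. The KLF site is in 3.56%, 3.73% and 4.42% of these sets. The shares were not compared by a test. A match describes the letters of the window and is no evidence of binding.

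**Figure D2:**
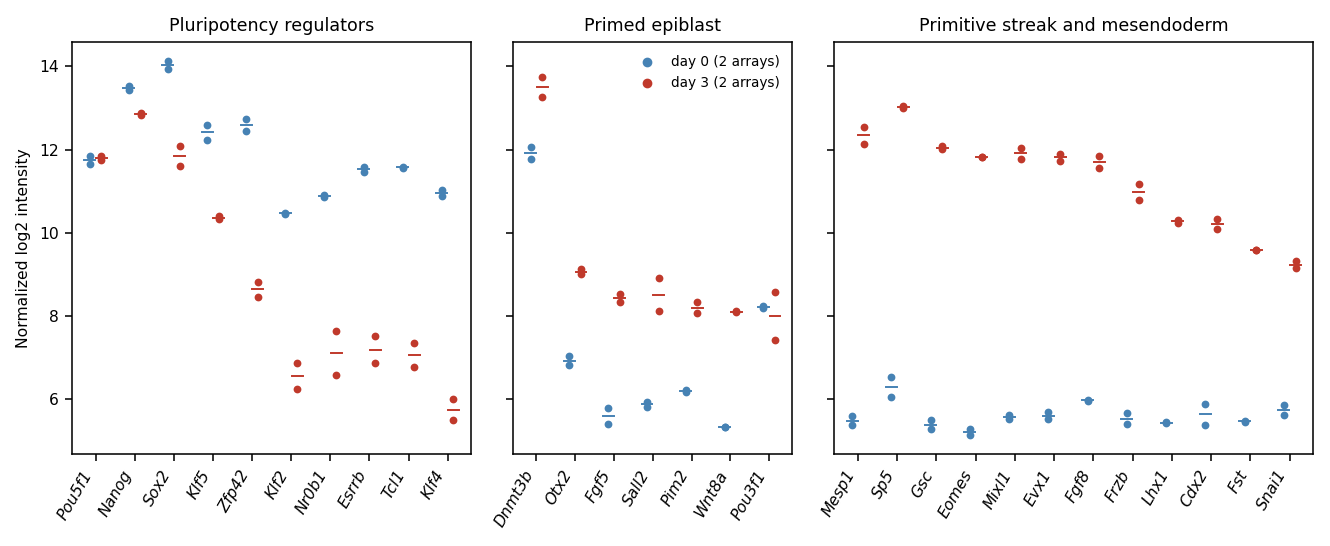
Normalized log2 intensity on each control array (blue points day 0, red points day 3, bars the means of 2 arrays) for pluripotency regulators, primed epiblast genes and streak genes. Pou5f1 and Nanog stay above 11 at both days, Klf4 drops to background, and the streak genes go from background to between 9 and 13.

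Markers of the undifferentiated cell outside that network mostly fell. Of 20 tested stem cell markers, 18 were lower, 1 was higher and 1 was not called, with a median of -2.36, or -2.18 with genes undetected at 1 of the days set at their bound. Jam2, a junctional adhesion molecule, had the largest fitted fall of all genes; it read 12.29 and 12.28 at day 0 and 6.27 and 6.88 at day 3, a difference of -5.71 ± 0.24 (adjusted p = 2.1e-10). Fbxo15, an F-box protein and early reporter of reprogramming, differed by -3.93 ± 0.19 (adjusted p = 9.9e-10), and Ooep, an oocyte factor, by -3.74. Dnmt3l, the catalytically inactive partner of the de novo DNA methyltransferases, read 11.76 and 11.77 at day 0 and 8.14 and 8.53 at day 3 and fell by 3.43 on the log2 scale. Utf1, a chromatin factor, differed by -3.31, Gdf3, a ligand related to Nodal, by -3.35, and Mybl2, a cell cycle transcription factor, by -2.89. Pecam1, an adhesion protein of stem cells and of endothelium, was at least 8.26-fold lower and Morc1 at least 6.27-fold lower. Fgf4, the growth factor that pushes stem cells out of the naive state, was at least 2.52-fold lower (adjusted p = 1.59e-08). The falls differ in depth: Dppa5a read 14.18 and 13.90 at day 0 and 12.18 and 12.33 at day 3 and so was among the brighter genes at both days. Trim28, a corepressor, differed by -1.06. Lin28a, an RNA-binding inhibitor of let-7 processing, was the member that rose, at 0.92 ± 0.24 (adjusted p = 0.00555).

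Genes tied to the LIF signal were mostly lower, and several could no longer be detected. Of 14 tested members of the LIF and STAT3 list, which shares Klf4, Gbx2 and Stat3 with the regulators above, 9 were lower and 2 higher, with a median of -1.51, or -1.42 with genes undetected at 1 of the days set at their bound. Socs3, the feedback inhibitor that STAT3 induces, read 11.50 and 11.09 at day 0 and 6.26 and 6.49 at day 3, which is at least 22.2-fold lower (adjusted p = 5.26e-11). Bcl3, a cofactor of NF-kappaB, was at least 4.06-fold lower, and Ier3, an immediate early gene, at least 3.92-fold lower. Pim3, a survival kinase, differed by -2.41 and Junb, an AP-1 subunit, by -0.87. The members that rose were Socs2, a suppressor of growth hormone signalling, at 0.99, and the AP-1 subunit Fos, at least 1.9-fold higher (adjusted p = 1.24e-06).

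The other large falls were spread over genes of several kinds. Aire, known for self-antigen expression in the thymus, read 11.02 and 11.14 at day 0 and 6.10 and 6.02 at day 3 and was called lower (adjusted p = 1.23e-11). Inhbb, an activin subunit, was at least 12.4-fold lower, Laptm5, a lysosomal membrane protein of blood cells, at least 9.51-fold lower, and Plekha4 at least 7.41-fold lower. The gene listed as AU018091 was at least 14.4-fold lower. Gpa33, a surface glycoprotein of intestinal epithelium, differed by -4.60 and Itga3, an integrin that binds laminin, by -4.24. Icam1, an adhesion molecule of leukocyte contact, read 10.42 and 10.45 at day 0 and 5.56 and 5.86 at day 3, which is at least 12.3-fold lower (adjusted p = 5.12e-10). Its promoter window (chr9:21015690-21015989, plus strand) is shown because it holds a STAT motif and the gene was among the largest falls. The part of LIF in that fall was not tested. The motif, TTCCNGGAA in capitals, starts 42 bases before the annotated start.
Icam1: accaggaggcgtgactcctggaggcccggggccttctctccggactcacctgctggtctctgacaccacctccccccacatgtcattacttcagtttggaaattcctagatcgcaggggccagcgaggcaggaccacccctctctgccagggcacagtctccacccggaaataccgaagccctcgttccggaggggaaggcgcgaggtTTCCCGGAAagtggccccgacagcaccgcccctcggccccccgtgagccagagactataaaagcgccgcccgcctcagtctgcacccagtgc
This motif is in 1.15% of all windows, in 1.16% of those of tested genes and in 0.904% of those of genes lower at day 3. The set of lower genes thus does not hold it more often than the tested genes or the genome at large. The window of Socs3 holds no match to these letters, and looser forms of the motif were not searched.

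Genes of the primed epiblast mostly rose. Of 13 tested, 10 were higher, 2 were lower and 1 was not called, with a median of 1.50, or 0.76 with genes undetected at 1 of the days set at their bound. Of the 13, 6 were detected at day 3 and not at day 0. Such members could pass the detection filter through their rise, so the count leans towards rises. A further 6 members on the array did not pass the filter. Fgf5, the growth factor that defines this state, read 5.80 and 5.40 at day 0 and 8.34 and 8.52 at day 3, which is at least 2.28-fold higher (adjusted p = 2.05e-09). Otx2, a homeobox factor that drives the step out of the naive state, read 7.03 and 6.82 at day 0 and 9.01 and 9.13 at day 3, a difference of 2.15 ± 0.20 (adjusted p = 6.18e-07). Day 0 and day 3 do not overlap for either gene. Sall2 was at least 2.42-fold higher, Pim2, a survival kinase, at least 1.94-fold higher and Wnt8a at least 1.82-fold higher. Tead2, a partner of YAP, was higher by 0.76. Cdh2, or N-cadherin, read 5.37 and 5.29 at day 0 and 6.96 and 6.71 at day 3 and was called higher (adjusted p = 4.58e-05) at a level where only 1 array detected it. Pou3f1, the POU factor Oct6 and a usual marker of this state, read 8.25 and 8.18 at day 0 and 7.43 and 8.58 at day 3. The 2 day 3 arrays lie on either side of the day 0 arrays, and the difference of -0.21 ± 0.27 (adjusted p = 0.541) did not pass. It was called lower without day 3 replicate 2, at -0.79 (adjusted p = 0.00777). Foxd3, which acts in both states, was lower, at -1.38.

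The enzymes of DNA methylation did not move as a block. Dnmt3b, the main de novo methyltransferase of the epiblast, read 12.06 and 11.77 at day 0 and 13.27 and 13.73 at day 3 and rose by 1.58 ± 0.31 (adjusted p = 0.000713), and a probe of Dnmt3a rose by 0.74 ± 0.20 (adjusted p = 0.00697). A second probe of Dnmt3a, brighter on these 4 arrays, read 244 and 359 at day 0 and 259 and 407 at day 3 in intensity before normalization, so that its days overlap. The mean of both probes was not called, at 0.41 (adjusted p = 0.0973), and the first was not called without day 0 replicate 1 (adjusted p = 0.0518) or day 3 replicate 2 (adjusted p = 0.0522). Their cofactor Dnmt3l fell, as given above. The maintenance enzyme Dnmt1 was not called at -0.21 ± 0.15 (adjusted p = 0.266). Tdg, a glycosylase that removes oxidised methylcytosine, rose by 1.21 ± 0.29 (adjusted p = 0.00286). Of the 9 tested members 3 were higher (33.3%) and 2 lower (22.2%), near the shares of all tested genes.

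The largest rises included genes of the primitive streak. Of 25 tested streak and mesendoderm genes, 20 were higher, 2 were lower and 3 were not called, with a median of 3.48, or 2.35 with genes undetected at 1 of the days set at their bound. A member could pass the detection filter through its rise, so the count among tested members leans towards rises, and 9 further members on the list did not enter the test. Sp5, a zinc finger factor and direct target of Wnt signalling, read 6.54 and 6.05 at day 0 and 12.99 and 13.04 at day 3, which is at least 54.9-fold higher (adjusted p = 9.9e-10). Mesp1, the earliest factor of cardiac and cranial mesoderm, read 5.59 and 5.38 at day 0 and 12.55 and 12.14 at day 3, which is at least 34.3-fold higher (adjusted p = 1.58e-09). Both went from below the dimmest detected probe to among the brightest genes. Gsc, a homeobox gene of the anterior streak, read 5.51 and 5.27 at day 0 and 12.07 and 12.01 at day 3, which is at least 27.9-fold higher (adjusted p = 8.77e-11). Mixl1, a homeobox factor of mesendoderm, read 5.53 and 5.62 at day 0 and 12.04 and 11.78 at day 3, which is at least 25.5-fold higher (adjusted p = 3.39e-10). Eomes, a T-box factor needed for mesoderm migration and endoderm, read 5.30 and 5.13 at day 0 and 11.83 and 11.83 at day 3, which is at least 24-fold higher (adjusted p = 1.75e-12). In each of these genes the replicates lie within 0.5 of each other and the days are more than 5 apart.

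Further regulators of the streak rose with them. Evx1, a homeobox gene of the posterior streak, was at least 23.8-fold higher. Fgf8, the growth factor that drives cells out of the streak, was at least 22-fold higher, and Lhx1, a LIM factor of anterior mesendoderm, at least 8.2-fold higher. Frzb, a secreted Wnt antagonist, was at least 13.5-fold higher. Fst, or follistatin, which binds activin, was at least 5.09-fold higher and Chrd, or chordin, a BMP antagonist of the organizer, at least 1.93-fold higher. Cdx2, a factor of the posterior body and of trophoblast, was at least 7.84-fold higher. Tbx6, a factor of paraxial mesoderm, read 6.36 and 5.94 at day 0 and 8.96 and 8.55 at day 3, which is at least 2.86-fold higher (adjusted p = 6.78e-08). Pdgfra, a receptor of early mesoderm, was at least 1.89-fold higher. The peptide Apln was at least 18.2-fold higher and its receptor Aplnr at least 2.01-fold higher. Dll3, a Notch ligand detected at both days, differed by 2.72 ± 0.16 (adjusted p = 4.36e-09). The 2 members called lower, Nodal and Tdgf1, belong to the inducing pathway and are described with it, as are the settings in which their calls were lost. Foxc2, Foxf1 and Hand1, factors of later mesoderm, were detected on none of the 4 arrays, and neither were Cer1 and Cdx4.

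The promoters of Mesp1 and Sp5 are shown as those of the top 2 rises. The Mesp1 window lies at chr7:79793541-79793840, minus strand, and the Sp5 window at chr2:70474673-70474972, plus strand. Capitals mark the TCF and LEF site CTTTGAT, through which Wnt signals act, 31 bases before the start in Mesp1 and 104 before in Sp5. In Mesp1 they also mark the T-box site TCACACCT, 6 bases after the start.
Mesp1: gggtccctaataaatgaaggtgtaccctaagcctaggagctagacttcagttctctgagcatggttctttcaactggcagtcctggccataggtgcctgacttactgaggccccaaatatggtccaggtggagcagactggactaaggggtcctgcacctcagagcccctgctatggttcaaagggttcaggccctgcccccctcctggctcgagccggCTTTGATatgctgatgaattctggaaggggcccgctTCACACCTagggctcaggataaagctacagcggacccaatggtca
Sp5: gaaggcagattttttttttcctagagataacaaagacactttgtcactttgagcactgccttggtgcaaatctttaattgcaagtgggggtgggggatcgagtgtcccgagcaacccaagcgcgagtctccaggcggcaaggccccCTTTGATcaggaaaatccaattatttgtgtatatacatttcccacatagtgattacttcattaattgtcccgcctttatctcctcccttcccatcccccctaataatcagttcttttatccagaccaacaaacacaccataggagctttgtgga
The TCF and LEF site is in 3.73% of all 32851 windows and in 2.42% of the windows of tested genes. It is in 2.19% of the windows of genes higher at day 3, and in 2 of the 16 windows found for streak members that rose. The T-box site is in 1.28%, 0.772%, 0.558% and 1 of 16. Across the higher genes neither site is more frequent than in all windows or in those of tested genes. The windows of Mesp1 and Sp5 hold 4 and 6 CpG pairs, against a median of 22 for genes higher at day 3, 19 for genes lower and 21 for all tested genes. Over all windows the median is 7, and for the streak members that rose it is 16.5.

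Further genes among the 15 largest rises have different roles. Gas1, a surface protein of hedgehog reception, read 5.30 and 5.67 at day 0 and 11.36 and 10.92 at day 3, which is at least 14.9-fold higher (adjusted p = 2.56e-09). Cdh11, a cadherin of mesenchyme, was at least 12-fold higher, and Msx1, a homeobox target of BMP, at least 10.8-fold higher. Gata6, a factor of endoderm and heart, was at least 13.5-fold higher. Ppp4r4, a regulatory subunit of a protein phosphatase, was at least 10.7-fold higher. All 5 were undetected on both day 0 arrays and detected on both day 3 arrays.

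The inducing pathways held members on both sides. Nodal signals through activin receptors with a coreceptor and SMAD2, and its feedback inhibitors are the Lefty proteins. Of 16 tested members, 5 were higher and 5 lower (31.2% each), near the 27.2% and 24.4% of all tested genes. Their median was -0.04, or 0.00 with genes undetected at 1 of the days set at their bound. Nodal itself read 9.03 and 9.23 at day 0 and 8.10 and 8.96 at day 3 and was lower, at -0.60 ± 0.23 (adjusted p = 0.039). Its day 3 arrays lie further apart than its day 0 arrays, and the higher of them lies just below day 0. Nodal was not called with only the 4 arrays fitted (adjusted p = 0.123) or with median centring (adjusted p = 0.21). On the authors' normalized values it was not called either (adjusted p = 0.31). Its call was lost without day 3 replicate 1, at -0.17 (adjusted p = 0.546), and without either day 0 array, at -0.70 and -0.50. Its coreceptor Tdgf1, also called Cripto, was lower, at -0.89 ± 0.24 (adjusted p = 0.00672) and stayed among the brightest genes, at 13.38 or more. The call of Tdgf1 was lost with median centring (adjusted p = 0.0982) and without background correction (adjusted p = 0.0852). The second coreceptor Cfc1, or Cryptic, was at least 4.86-fold higher (adjusted p = 0.000427). Lefty1 was lower, at -1.47 ± 0.20 (adjusted p = 3.09e-05) and Lefty2 higher by 0.51 ± 0.20 (adjusted p = 0.0457), a call that was lost without day 0 replicate 2, at 0.31 (adjusted p = 0.299), and without day 3 replicate 1, at 0.35 (adjusted p = 0.268). Foxh1, the DNA-binding partner of SMAD2, was at least 1.03-fold higher, Smad4 differed by 0.67, and the receptor Acvr2b by 0.64.

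Members of the Wnt pathway were found on both sides. Of 20 tested Wnt pathway genes, 8 were higher and 4 lower, at a median of 0.31, or 0.00 with genes undetected at 1 of the days set at their bound. Axin2, a feedback inhibitor and general Wnt target, read 6.43 and 6.58 at day 0 and 9.91 and 9.88 at day 3, which is at least 6.29-fold higher (adjusted p = 5.12e-10). The factor Lef1 read 6.03 and 6.64 at day 0 and 7.13 and 6.88 at day 3 and was called higher (adjusted p = 0.0137), though not without day 0 replicate 1 (adjusted p = 0.181) or day 3 replicate 1 (adjusted p = 0.104), and the ligand Wnt5b was at least 3.15-fold higher. Among receptors Fzd10 was higher by 1.07. Notum, an enzyme that inactivates Wnt ligands, was lower, at -2.59 ± 0.24 (adjusted p = 4.67e-07), Porcn, which lipidates them, at -2.41 ± 0.18 (adjusted p = 5.21e-08), and the secreted antagonist Sfrp2 at -0.82, while Sfrp1 was at least 1.99-fold lower. The effector beta-catenin, Ctnnb1, read 13.79 and 13.48 at day 0 and 13.85 and 13.89 at day 3 and was not called at 0.24 ± 0.15 (adjusted p = 0.185), though with median centring it was called higher, at 0.61 (adjusted p = 0.00598).

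In the FGF pathway 7 of 17 tested genes were higher and 4 lower. The ligands changed over, with Fgf4 lower and Fgf5 and Fgf8 higher as given above, Fgf10 at least 1.74-fold higher and Fgf17 lower, at -0.96. Dusp6, the phosphatase that ERK signalling induces against itself, read 8.64 and 8.46 at day 0 and 11.72 and 11.61 at day 3 and rose by 3.11 ± 0.16 (adjusted p = 1.18e-09). Dusp4 rose by 1.60, whereas the immediate early factor Egr1 was lower, at -0.79. Of the BMP list 7 of 17 tested were higher and 3 lower. The ligand Bmp4 was lower, at -1.58 ± 0.17 (adjusted p = 2.75e-06). Its target genes Id1, at least 2.51-fold higher, and Id3, at 2.57, were higher, as was Smad1, which transmits the signal, at 2.50 ± 0.18 (adjusted p = 4.68e-08). Id2 was lower, at -0.63.

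Genes of the epithelial to mesenchymal transition, by which streak cells leave the epiblast, changed in part. Of 17 tested, 7 were higher and 3 lower. Snai1, the repressor of E-cadherin, read 5.63 and 5.87 at day 0 and 9.32 and 9.15 at day 3, which is at least 3.99-fold higher (adjusted p = 2.39e-09), and Zeb2, another repressor of this class, was at least 2.76-fold higher (adjusted p = 4.48e-08). E-cadherin, Cdh1, read 13.72 and 13.22 at day 0 and 12.32 and 12.49 at day 3: it differed by -1.07 ± 0.35 (adjusted p = 0.0195) and remained a bright gene. That call was lost without day 0 replicate 1 (adjusted p = 0.139) and without day 3 replicate 1 (adjusted p = 0.0919). Cldn4, a tight junction protein, was at least 6.21-fold lower (adjusted p = 2.98e-08), whereas Krt8, a keratin of simple epithelia, was higher by 0.74. Vim, the filament protein of mesenchyme, was not called at 0.34 ± 0.23 (adjusted p = 0.24), and was called higher without day 0 replicate 2, at 0.73 (adjusted p = 0.0181), and with median centring, at 0.53 (adjusted p = 0.0417).

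Factors of endoderm rose in part, while products of differentiated visceral endoderm did not. Of 9 tested endoderm regulators 6 were higher and 1 was lower. This count also leans towards rises, since 5 of the 9 were detected at day 3 and not at day 0. A further 5 members on the array did not pass the detection filter. Sox17, which specifies definitive endoderm, read 5.67 and 5.74 at day 0 and 8.80 and 8.74 at day 3, which is at least 2.89-fold higher (adjusted p = 4.5e-07). Cxcr4, a chemokine receptor of definitive endoderm and mesoderm, was at least 2.56-fold higher. Dab2, an endocytic adaptor of primitive endoderm, read 5.99 and 5.75 at day 0 and 7.08 and 7.35 at day 3 and was called higher (adjusted p = 7.42e-06). The dimmest detected probes of the day 3 arrays lay at 7.00 and 6.64. Another probe of Dab2, undetected on these 4 arrays, read 46.1 and 26.6 at day 0 and 26.1 and 51.5 at day 3 before normalization, so that its days overlap. Hhex, a homeobox factor of anterior endoderm, rose by 1.73 ± 0.18 (adjusted p = 1.64e-06). Foxa2 was detected on 1 of the day 3 arrays, and Gata4 and Sox7, which with Gata6 mark primitive endoderm, on none. Of 17 tested visceral endoderm products none was higher and 5 were lower, and 11 of the 17, among them Afp, Ttr and Apoa1, were undetected at both days. The 5 lower ones include Spink1 (also known as Spink3), a protease inhibitor, which read 10.67 and 10.65 at day 0 and 6.33 and 6.73 at day 3, at -4.13 ± 0.36 (adjusted p = 2.8e-07), and Rhox5, a homeobox gene, at -2.35. Their summed linear intensity was 4520 and 4320 at day 0 and 1220 and 1430 at day 3.

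Markers of other cell types were followed by their summed linear intensity, and their part in the results above was not tested. Of 18 tested blood and endothelium genes 5 were higher (27.8%, near the 27.2% of all tested genes) and 2 lower, and the list's summed intensity was 1900 and 2160 at day 0 and 2060 and 1870 at day 3. The 5 are early regulators and receptors: Kdr, the VEGF receptor of mesoderm that gives rise to blood and vessels, at least 2.36-fold higher (adjusted p = 2.11e-07), Etv2, the master factor of that lineage, at least 2.07-fold higher, Lmo2 at least 1.4-fold higher, Gata2 at least 1.28-fold higher and Flt1 at least 1.09-fold higher. Other markers of the lineage, Gata1, Hbb-bh1, Tal1 and Cdh5, were detected on none of the 4 arrays. The summed intensity includes Pecam1, given above as lower and also a stem cell protein. Before normalization 1 of its probes read 636 and 904 at day 0 and 16.9 and 49.4 at day 3. A flat sum of this list thus does not mean that its members were flat. Among 11 tested cardiac regulators 4 were higher, Mesp1, Gata6 and Foxh1 among them, and 2 lower, while Nkx2-5 was detected on no array. The summed intensity of that list was 1090 and 985 at day 0 and 8870 and 7130 at day 3, and without Mesp1 and Gata6 it was 973 and 885 at day 0 and 718 and 703 at day 3. Those 2 genes account for the higher sum.

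Of 11 tested neural genes 3 were higher (27.3%, near that of all tested genes) and 4 lower, and the summed intensity was 2500 and 2590 at day 0 and 2120 and 2270 at day 3. Nes, or nestin, was at least 2.92-fold higher and Fabp7, a lipid carrier of neural progenitors, at least 3.9-fold higher, whereas Pax6, a factor of neural ectoderm and eye, was at least 2.82-fold lower and Neurod1 was lower, at -3.04. Sox1, which defines early neural ectoderm, was undetected. Of 13 trophoblast genes 4 were higher and 4 lower (30.8% each, near the shares of all tested genes). Their summed intensity was 4520 and 4110 at day 0 and 8520 and 7730 at day 3. The higher ones include Cdx2 and Eomes, which the streak also expresses, and without these 2 the sum was 4420 and 4030 at day 0 and 3610 and 3010 at day 3. In that list Elf5 and Krt7 were undetected. Of 13 feeder fibroblast and mesenchyme genes none was higher and 5 were lower, at 1480 and 1200 at day 0 and 779 and 742 at day 3. Col1a1, Col3a1, Postn and Fap were undetected on all 4 arrays, and Thy1 was at least 2.09-fold lower. Col1a2 was detected on 1 day 0 array and on no day 3 array. Before normalization its intensity was 116 and 71.6 at day 0 and 51.8 and 40.8 at day 3. Of the 13 members, 4 were detected at day 0 and not at day 3.

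Outside the lineage genes, those of the basement membrane mostly fell. Of 21 tested members 14 were lower and 2 higher, at a median of -1.51, or -1.38 with genes undetected at 1 of the days set at their bound, and their summed intensity was 21500 and 18800 at day 0 and 6240 and 7060 at day 3. Of the laminin chains Lama1 read 9.40 and 9.15 at day 0 and 6.96 and 5.91 at day 3, which is at least 5.46-fold lower, and Lamc1 differed by -3.07 ± 0.19 (adjusted p = 7.22e-09). The collagen IV chain Col4a1 was at least 1.98-fold lower, and the linker nidogen 1, Nid1, at least 6.21-fold lower. Sparc, a collagen-binding protein, was at least 4.06-fold lower, and Itga6, a laminin receptor subunit, at least 6.71-fold lower. Perlecan, Hspg2, differed by -2.65, and Col18a1 by -1.71.

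Genes of glucose use and of the response to low oxygen also fell. Of 23 tested, 15 were lower and 2 higher, at a median of -0.72, or -0.45 with genes undetected at 1 of the days set at their bound. Slc2a3, a glucose transporter, read 13.82 and 13.38 at day 0 and 10.06 and 10.31 at day 3 and differed by -3.42 ± 0.30 (adjusted p = 2.84e-07), and Slc2a1 by -2.36. Vegfa, the hypoxia-induced growth factor of vessels, read 11.52 and 11.57 at day 0 and 7.39 and 7.36 at day 3, at -4.17 ± 0.16 (adjusted p = 8.87e-11). Pfkp, a phosphofructokinase, differed by -3.36, Bnip3, a mitophagy receptor, by -3.24 and Hk2, a hexokinase, by -1.43. The enzyme Tpi1, in the lower arm of the pathway, was not called, at 0.09 ± 0.15 (adjusted p = 0.656), and was called higher with median centring, at 0.42 (adjusted p = 0.0249).

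Genes of the response to amino acid shortage and to stress of the endoplasmic reticulum were mostly lower, with 10 of 16 tested genes lower and 1 higher, at a median of -1.19. Asns, asparagine synthetase, read 12.56 and 12.64 at day 0 and 10.91 and 10.85 at day 3 and differed by -1.72 ± 0.15 (adjusted p = 2.11e-07). The stress factor Ddit3, or CHOP, was at least 2.58-fold lower, and Chac1, which degrades glutathione, at least 2.85-fold lower. The arginine transporter Slc7a3 differed by -1.98 and Psat1, of serine synthesis, by -1.51. Hspa5, the chaperone BiP, was the member that rose, at 0.69 ± 0.27 (adjusted p = 0.0464), but that call was lost without day 0 replicate 2, at 0.14 (adjusted p = 0.64), without either day 3 array (adjusted p = 0.174 and 0.0877) and with the 4 arrays alone (adjusted p = 0.129). Among p53 and apoptosis genes 4 of 19 were higher and 7 lower. Gadd45g was at least 4.66-fold lower and Mcl1, an inhibitor of apoptosis, differed by -1.59, while Pmaip1, or Noxa, which promotes it, was at least 2.03-fold higher.

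Genes of the germ line and of the rare 2-cell-like state were mostly lower. Of 9 tested germ cell genes 5 were lower and 1 was higher. Mael, of the piRNA pathway, differed by -2.83 ± 0.28 (adjusted p = 8.49e-07), and Hormad1, of meiotic chromosomes, was at least 2.44-fold lower. Of 6 genes of the 2-cell embryo 5 were lower. Zscan4c, a telomere regulator and the usual marker of that state, read 7.96 and 8.85 at day 0 and 6.08 and 6.24 at day 3, which is at least 3-fold lower (adjusted p = 1.76e-06), and Tcstv3 differed by -2.34 ± 0.18 (adjusted p = 8.71e-08). Both are members of multigene families whose copies one probe may not separate.

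Sterol synthesis divided, with 7 of 14 tested genes higher and 6 lower. Hmgcs1, at the entry of the pathway, rose by 1.73 ± 0.14 (adjusted p = 1.76e-07) and Idi1 by 0.99, while Dhcr7, at its end, differed by -1.65 ± 0.20 (adjusted p = 8.12e-06) and the regulator Srebf2 by -1.41 ± 0.13 (adjusted p = 6.11e-07). Of 16 imprinted genes 6 were higher and 4 lower. Ndn was at least 3.52-fold higher and Snrpn higher by 1.07, while the growth factor Igf2 was lower, at -1.22 ± 0.19 (adjusted p = 0.000106) and the receptor that clears it, Igf2r, at -1.19. The 7 tested Hox genes were undetected at both days, so that the calls of 2 of them, 1 in each direction, lie below background.

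Genes of proliferation and of protein synthesis were called in part. Of 26 genes of replication and mitosis 20 were not called, 5 were higher and 1 was lower, and with median centring 12 were higher and none lower. The 5 act in DNA synthesis, with Rrm1, a subunit of ribonucleotide reductase, at 1.03 and Pcna, the polymerase clamp, at 0.71. The cyclins of G1 moved apart. Ccnd1 rose by 1.02 ± 0.18 (adjusted p = 0.000277) and Ccnd2 was at least 2.28-fold higher (adjusted p = 5.65e-08), while Ccnd3 was lower, at -1.32 ± 0.15 (adjusted p = 3.46e-06). Of 26 ribosomal proteins 10 were higher (38.5%) and none lower, at a median of 0.27, and with median centring 25 were higher. Of 37 subunits of the respiratory chain 8 were higher and 11 lower, a direction that turned with median centring, to 16 higher and 4 lower. Of 9 housekeeping genes 6 were not called, 2 were higher and 1 was lower, and with median centring 4 were higher and none lower.

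**Figure D3:**
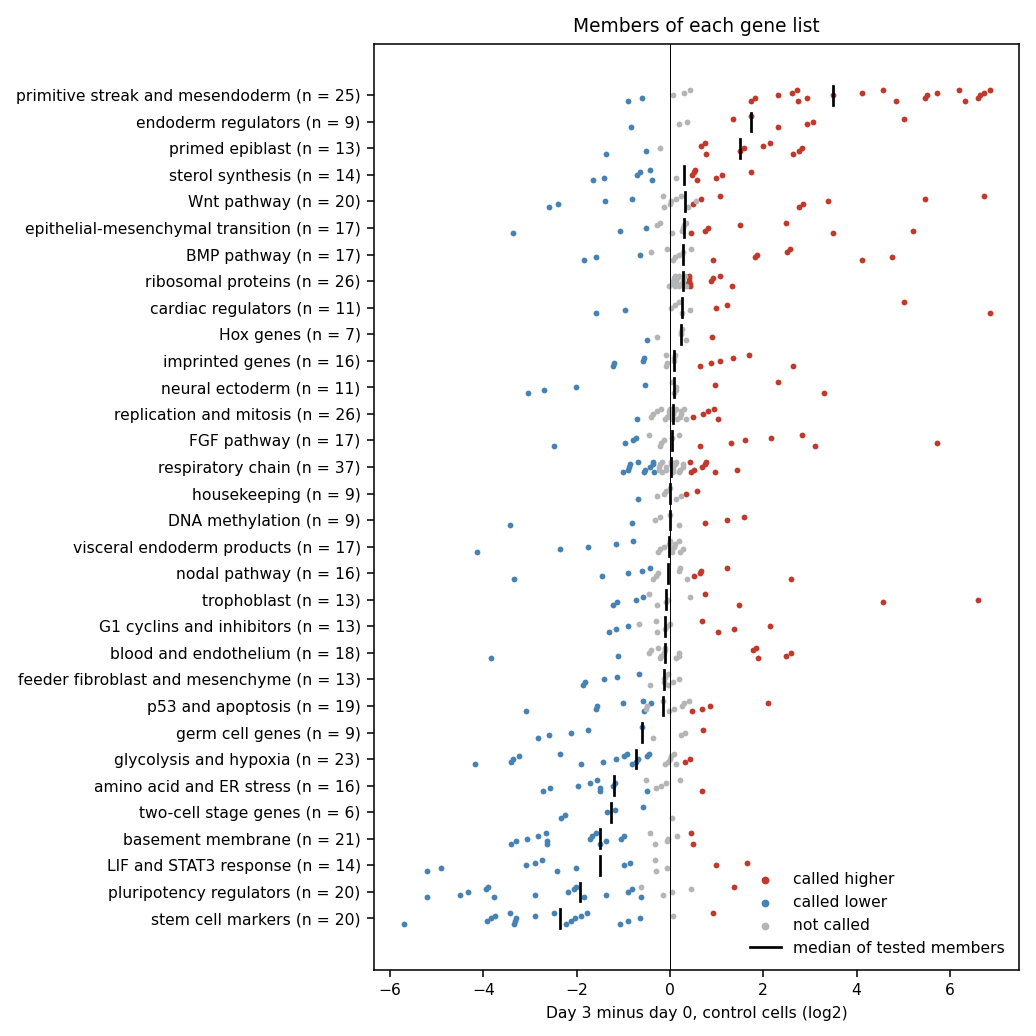
Each row is a gene list with the number of members tested, and each point is a member's day 3 minus day 0 difference (log2) in control cells, red if called higher, blue if called lower and grey if not called; the black bar is the median. The streak list has the highest median at 3.48 and the stem cell markers the lowest at -2.36.

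The rise of the streak genes was followed on the later control arrays, which share the day 3 arrays with the comparison above. Between days 3 and 6, 1945 of all tested genes (25.9%) were higher and 2016 (26.9%) lower. Of the 2038 genes higher at day 3, 761 (37.3%) were lower again at day 6 and 413 (20.3%) rose further. Since both differences use the day 3 arrays, an error in those arrays would raise the first count. Of the 25 streak genes 18 were lower at day 6 than at day 3. Members could pass the detection filter through their day 3 signal alone, so this count leans towards falls. Mesp1 read 5.28 and 5.71 at day 6 and 5.83 and 5.55 at day 9 and was at least 55.1-fold lower at day 6 than at day 3, and Gsc was at least 44.7-fold lower. Eomes, Mixl1, Fgf8 and Lhx1 were also undetected at day 6. Other rises did not turn by day 6. Gata6 read 12.98 and 12.48 at day 6 and 13.41 and 13.60 at day 9 and was higher again at day 6 by 1.73 ± 0.37, and Pdgfra by 1.89 ± 0.20. Kdr was higher at day 6 by 3.24 ± 0.22. Gas1 and Msx1 were not called between days 3 and 6, at -0.52 ± 0.31 (adjusted p = 0.176) and 0.12 ± 0.22 (adjusted p = 0.676).

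Of the 1829 genes lower at day 3, 592 (32.4%) were higher again at day 6 and 398 (21.8%) fell further. Of the 21 tested basement membrane genes 19 were called higher at day 6 than at day 3, against 25.9% of all tested genes. Members could pass the detection filter through later days, so that count leans towards rises. The 14 that fell by day 3 all had higher means at day 6, but they were chosen for low day 3 values. Sparc was at least 10.5-fold higher at day 6 than at day 3, Lama1 at least 3.28-fold, and Vegfa read 10.50 and 10.82 at day 6 and 11.93 and 12.17 at day 9, up by 3.28 ± 0.16 on the log2 scale from day 3. Spink1 rose by 6.55 ± 0.36. Pou5f1 and Nanog, which were not called by day 3, fell after it. Pou5f1 read 5.92 and 6.03 at day 6 and 6.22 and 5.75 at day 9 and was at least 37.7-fold lower at day 6 than at day 3, and Nanog differed by -5.62 ± 0.26. Between days 0 and 9 the control cells had 2642 higher genes (35.2%) and 2554 lower (34% of those tested). Of the genes higher at day 3, 1133 were also higher at day 9 than at day 0 and 283 were lower. Of those lower at day 3, 1155 were lower at day 9 and 271 higher. These differences share the day 0 arrays, so an error in those arrays would raise the counts of 1133 and 1155. An error in the day 3 arrays would likewise raise the 592 and the counts of basement membrane genes higher at day 6.

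**Figure D4:**
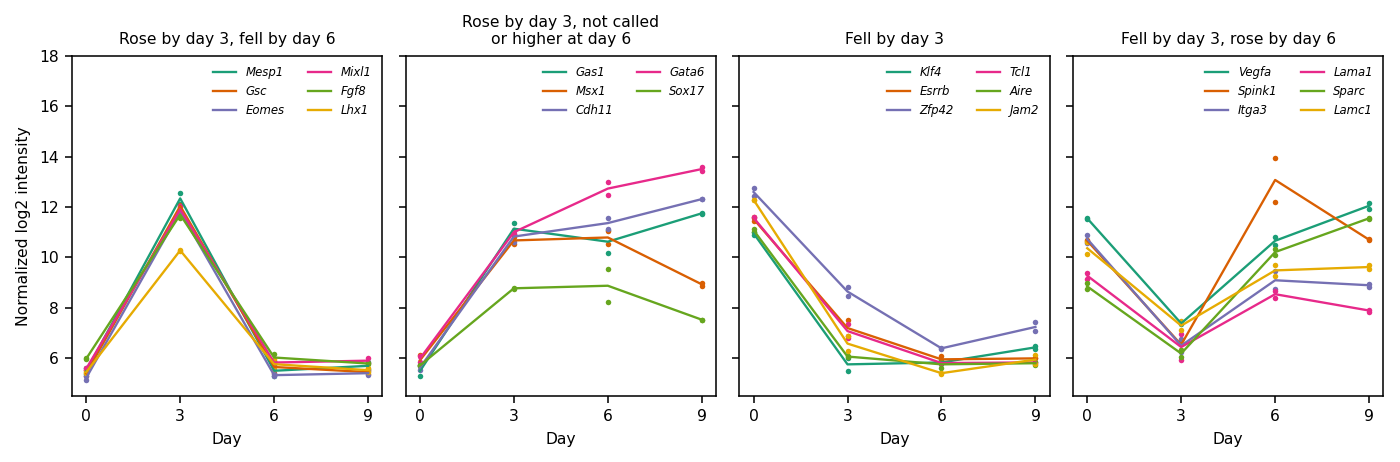
Normalized log2 intensity against day in control cells, with points for the 2 arrays of each day and lines through their means, in 4 groups of genes. Mesp1 and the other genes of the first panel peak at day 3, and those of the second are still high at day 6. In the second panel Msx1 and Sox17 are lower at day 9, at means of 8.93 and 7.52. Genes of the third panel stay low, and Vegfa and the others of the fourth dip at day 3.

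The same change was set beside that of the cells without Rest. The 2 genotypes may also differ as cell lines, so that the deletion and the line it was made in cannot be told apart. The probe of Rest itself did not pass the detection filter. By the interaction term in the same fit, the change from day 0 to day 3 differed between genotypes for 200 genes (2.66% of those tested). Among the 2038 genes that rose in control cells, 84 rose less or fell in the knockout and 9 rose more. Among the 1829 that fell, 64 fell less or rose and 7 fell more. This difference takes the control change with a negative sign, so an error in the control arrays would produce the same pattern. Of the 200, the change was more upward in the knockout for 96 and more downward for 104. These became 25 and 43 without control day 3 replicate 1, and 55 and 66 without background correction. Of the 25 streak genes 14 had a smaller rise in the knockout or none, against 104 more downward among all 7505 tested genes. Of the 25, 18 were detected in control cells at day 3 and not at day 0. Members could pass the detection filter through control day 3 signal alone, so this count leans towards smaller rises in the knockout.

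The 5 largest differences each way, among genes called in control cells, are given here and were chosen for their size. A gene undetected at day 0 has no exact change, so that its difference depends on the background correction. Gata6 read 6.49 and 6.19 at day 0 and 8.60 and 6.84 at day 3 in the knockout, against 6.10 and 5.85 at day 0 and 11.09 and 10.91 at day 3 in control cells, and the changes differed by -3.64 ± 0.52 (adjusted p = 0.00154). Mesp1 read 5.52 and 5.55 at day 0 and 9.71 and 8.03 at day 3 in the knockout, a difference in change of -3.53 ± 0.51 (adjusted p = 0.00154). For both genes the 2 knockout arrays of day 3 lie more than 1.5 apart, with the first the higher. Lhx1 differed by -3.41 ± 0.50 (adjusted p = 0.00165). Sox17 read 5.91 and 5.62 at day 0 and 5.40 and 5.41 at day 3 in the knockout, undetected throughout, and differed by -3.43 ± 0.40 (adjusted p = 0.00028). Without background correction the value of Sox17 was -7.01 and on the authors' normalized values -4.92, while Mesp1 and Lhx1 were not called without background correction, at -3.51 (adjusted p = 0.247) and -4.07 (adjusted p = 0.204). Lmo1, a LIM adaptor protein, read 6.27 and 6.68 at day 0 and 10.37 and 9.86 at day 3 in control cells and 6.59 and 7.11 at day 0 and 7.21 and 6.83 at day 3 in the knockout, a difference of -3.47 ± 0.32 (adjusted p = 7.92e-05). In all 5 genes the control arrays of day 3 lie above those of the knockout. In the other direction, Itga3 fell in both and less in the knockout, with a difference of 2.23 ± 0.32 (adjusted p = 0.00154). Nefm, a neurofilament, rose in both and more in the knockout, by 1.88 ± 0.22 (adjusted p = 0.00028). Kif5c, a neuronal kinesin, differed by 1.91 ± 0.29 (adjusted p = 0.00248) and Retreg1, a receptor of endoplasmic reticulum turnover, by 1.90 ± 0.40 (adjusted p = 0.0201). Igf2 differed by 1.87 ± 0.27 (adjusted p = 0.00166). It read 7.20 and 7.02 at day 0 and 7.60 and 7.92 at day 3 in the knockout and 10.08 and 9.48 at day 0 and 8.79 and 8.34 at day 3 in control cells, where both day 0 arrays lie above those of the knockout. Eomes, Fgf8 and Apln, among the largest rises, did not pass the test of the difference, at -0.41 ± 0.23 (adjusted p = 0.463), -0.20 ± 0.22 (adjusted p = 0.777) and -0.35 ± 0.22 (adjusted p = 0.541).

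**Figure D5:**
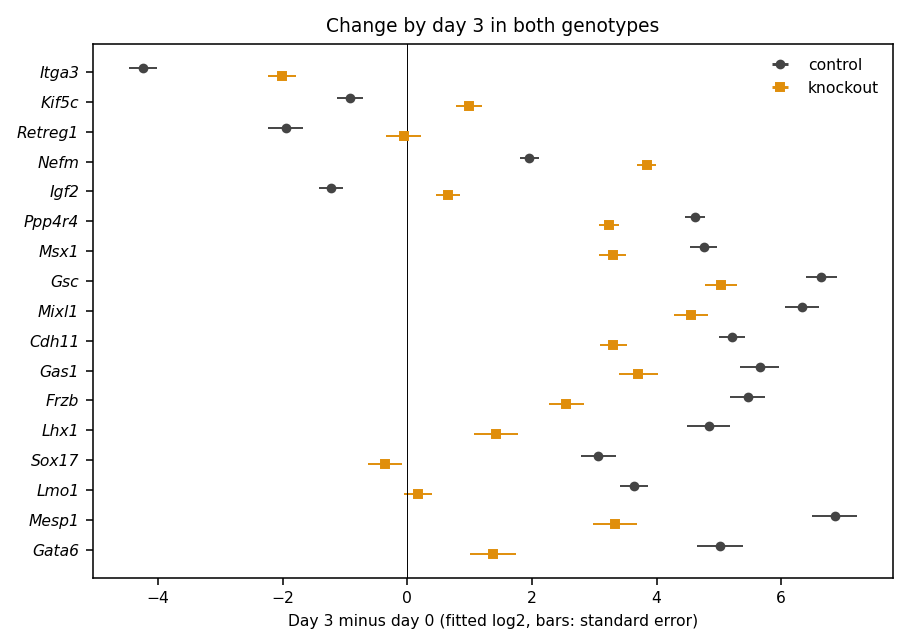
Day 3 minus day 0 (fitted log2, bars are standard errors of the fit) in control cells (circles) and knockout cells (squares) for 17 genes whose change differed between the genotypes, taken from the 15 largest rises and falls in control cells and the 5 largest differences each way; values of undetected genes depend on the background. Gata6, Mesp1, Lmo1, Sox17 and Lhx1 rose more in control cells, and Nefm rose more in the knockout.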

How the data were processed

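RNA of 16 samples was hybridised to single-colour Illumina mouse bead arrays. Per the file headers, the authors deposited 1 intensity per probe and array, without normalization, for 25697 probes. Beside it stands a deposited detection p-value, whose steps are those of a comparison with 798 negative control probes. Background had been subtracted from the deposited intensity, since some values lie below 0. Another deposited table holds intensity after quantile normalization by the authors, to judge by its values, and served as an alternative. The sources used here do not name the scanner software.

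In R 4.3.3 with limma 3.58.1 (and statmod 1.5.0) the intensities were corrected by normexp with control parameters inferred from the detection p-values, given an offset of 16, quantile normalized and put on the log2 scale (the neqc steps). Differences of dim genes are understated on this scale. A probe was kept if at least 1 group had it detected on both arrays, at p below 0.01, which left 10241 probes. The platform annotation gave 1 symbol to 23978 probes, several to 0 and none to 1719. The brightest detected probe stood for each of 7505 genes. The model (lmFit, then eBayes) had a mean for each of the 8 groups over all 16 arrays (8 residual and 6.4 prior degrees of freedom), so that all groups share 1 estimate of the spread. The script was tested on simulated data.

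Same-numbered arrays were checked for shared deviations from their group means: of 28 pairs of groups, 1 correlated over 0.1 (range -0.177 to 0.144), so the numbers were not used as pairs. The comparison, the 32 gene lists and the motifs were chosen with earlier results of these data known. Named genes are the 15 largest rises and the 15 largest falls among called genes whose days do not overlap, called members of the lists, defining markers, the brightest list members that were not called, and the 5 largest differences between genotypes each way. Bounds use, per array, the higher of the dimmest detected probe and the gene's own value. RefSeq promoter windows (GRCm38.p6) were searched on both strands, with 6163 of the tested genes having at least 1. Alternatives varied the background correction, offset, normalization, filter, probe choice, arrays fitted and replicates.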

Additional observations from a re-analysis of the deposited data

Results flagged for a closer look

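Among the genes named in the text, 40 changed to a different extent by day 3 in the cells without Rest, by the interaction term of the limma fit (adjusted p at most 0.0474). Some of them were named because this difference was large. The values that follow are the change in the knockout minus the change in control cells, on the fitted log2 scale. Of the 40, 30 were undetected at day 0 or at day 3 in control cells, and their values depend on the background and are no bounds.

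The change was more downward in the knockout for 28. Gata6 stood at -3.64, Mesp1 at -3.53, Lmo1 at -3.47, Sox17 at -3.43, Lhx1 at -3.41 and Frzb at -2.91. Cxcr4 stood at -2.84, Tbx6 at -2.69, Kdr at -2.46, Hhex at -2.33, Fgf10 at -2.29, Pdgfra at -2.22 and Aplnr at -2.21. Gas1 differed by -1.95, Gata2 by -1.94, Cdh11 by -1.90, Mixl1 by -1.78, Gsc by -1.62, Cdx2 by -1.57, Snai1 by -1.52, Fos by -1.51 and Chrd by -1.51. The smallest of these were Msx1 at -1.46, Ppp4r4 at -1.39, Dll3 at -1.38, Id1 at -1.16, Egr1 at -1.12 and Lmo2 at -1.10. Egr1 fell in control cells, and the other 27 rose.

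The change was more upward for 12. Itga3 stood at 2.23, Pou3f1 at 1.95, Kif5c at 1.91, Retreg1 at 1.90, Nefm at 1.88 and Igf2 at 1.87. Thy1 differed by 1.36, Itga6 by 1.33, Lefty1 by 1.29, Krt8 by 1.26, Dnmt3l by 0.91 and Wnt8a by 0.87. Pou3f1, which was not called in control cells, read 8.39 and 8.44 at day 0 and 9.88 and 10.42 at day 3 in the knockout.

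Of the 40, 27 were still called without control day 3 replicate 1, 32 without control day 0 replicate 2, 33 without control day 0 replicate 1, 23 on the authors' normalized values and 17 without background correction. With 2 arrays a group no array could be tested as an outlier.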

How the results depend on the processing

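The counts of control genes higher and lower at day 3 stayed within 1.5 times their value under every alternative run. Without each of the 4 arrays in turn they ranged from 1590 to 1844 higher and from 1477 to 1675 lower, and with only the 4 arrays fitted they were 1579 and 1468. No called gene turned to the opposite call, other than 2 when a gene's probes were averaged. With the replicate block 1996 were higher and 1787 lower; the numbers do not pair the arrays. With median centring 69.8% of calls were upwards, since that setting lifts the median of all genes to 0.23. The difference between genotypes was less stable. Without background correction 55 genes changed more upwards and 66 more downwards in the knockout, on the authors' values 56 and 66, and with median centring 53 upwards; the cause was not tested. Without each of the 4 control arrays in turn they ranged from 25 to 134 and from 43 to 138, the lowest without control day 3 replicate 1. With the filter on control days 0 and 3 alone, which tests 5866 genes, 1249 rose from day 3 to day 6 and 1735 from day 0 to day 9.

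Some genes that were not called turned sign. Pou5f1 stood at -0.10 over the mean of its probes, and between -0.04 and 0.14 without each array in turn. Dnmt1 stood at 0.19 with median centring, Vim between -0.05 and 0.73 without each array in turn, and Pou3f1 likewise between -0.79 and 0.36. Calls lost under at least 1 alternative were those of Cdh1, Dnmt3a, Fgf17, Foxd3, Hspa5, Id2, Lef1, Lefty2, Mycn, Nodal, Pim2, Pmaip1 and Tdgf1. Calls gained under at least 1 were those of Nanog, Pou5f1, Sall4, Tpi1, Ctnnb1, Vim and Pou3f1. Of the named calls 151 of 164 held under all of them. Precision is limited by 2 arrays a group, and genes near background give bounds only.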
